A study of Homo sapiens with 6 samples.

Results

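Glypicans, syndecans and agrin are core proteins that carry heparan sulfate chains. The 10 genes described here are GPC1, GPC2, GPC3, GPC4, GPC6, SDC1, SDC2, SDC3, SDC4 and AGRN, chosen by symbol among 42307 genes in the tables, and each symbol had 1 row. They were measured by RNA sequencing in U251, an established human glioblastoma line labelled WT. The STING-OE group (3 libraries) received plasmids that overexpress STING, the adaptor of cytosolic DNA sensing, and the NC group (3 libraries) received negative control plasmids. Both groups were transfected with 1 ug per well and carried the plasmid until day 3. All libraries came from a single cell line. Separate cultures are not stated for the replicates, so the p-values reflect the spread among these libraries alone, and that spread may be technical.

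Heparan sulfate proteoglycans sit at the cell surface and in the matrix, where their sulfated chains bind growth factors, morphogens and matrix proteins. Glypicans hang from the membrane by a lipid (GPI) anchor and are known for tuning FGF, Wnt, Hedgehog and BMP signals. Syndecans cross the membrane, act as coreceptors beside integrins and growth factor receptors, and can be shed by proteases. Agrin is a large secreted proteoglycan of basement membranes, best known for clustering acetylcholine receptors at the neuromuscular junction, and GPC1 and SDC1 have been studied in glioma as partners of FGF2 and other ligands.

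The libraries held 71498790 to 76566375 counts each, and at this depth 3 counts equal 0.0392 to 0.042 CPM (counts scaled to library size), a floor that covers counting error only. STING1, the gene on the overexpression plasmid, was at 56.3, 54.7 and 47.3 CPM in STING-OE libraries and at 36.2, 37.1 and 31.2 CPM in NC libraries. Its log2 fold change was 0.60 (SE 0.078, edgeR adjusted p = 0.00221), and plasmid and chromosomal transcripts were not separated. The 9 glioma and astrocyte markers analysed summed to 3880 to 4030 CPM in STING-OE libraries and 4150 to 4300 CPM in NC libraries. VIM, NES, SOX2 and CD44 were abundant in both groups, and S100B stayed at or below 0.331 CPM in every library. All 9 had negative estimates. In 5 of them every STING-OE library lay below every NC library in CPM, as in 9.73% of all tested genes. GFAP alone had an adjusted p under 0.05 (log2 fold change −0.86, edgeR adjusted p = 0.033, and 0.0503 with offsets for GC content and length). The 15 markers of other cell types summed to 124 to 155 CPM in STING-OE libraries and 119 to 131 CPM in NC libraries. Most of that came from MAP2 and CD68, and PECAM1, CDH5, CD3E, EPCAM and KRT5 never exceeded 1.09 CPM and the leukocyte gene PTPRC ranged from 0.937 to 7.64 CPM across all libraries. In bulk RNA, fewer cells of a type and less RNA per cell cannot be told apart.

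The promoters of 5 of these genes are shown because they span the genes that fell and close relatives that did not pass the test. They are RefSeq windows on GRCh38.p14, from 250 bases before to 50 bases after the start, read 5′ to 3′ on the gene's own strand, with matches to the GC box GGGCGG on either strand in capitals, overlapping matches included. Windows for 7 of the 10 genes were used. GPC1 (chr2:240435413-240435712, plus strand) and SDC3 (chr1:30908709-30909008, minus strand) are the genes that fell. GPC4 (chrX:133415440-133415739, minus strand), GPC6 (chr13:93226557-93226856, plus strand) and SDC4 (chr20:45348375-45348674, minus strand) are relatives that did not pass the test.
GPC1: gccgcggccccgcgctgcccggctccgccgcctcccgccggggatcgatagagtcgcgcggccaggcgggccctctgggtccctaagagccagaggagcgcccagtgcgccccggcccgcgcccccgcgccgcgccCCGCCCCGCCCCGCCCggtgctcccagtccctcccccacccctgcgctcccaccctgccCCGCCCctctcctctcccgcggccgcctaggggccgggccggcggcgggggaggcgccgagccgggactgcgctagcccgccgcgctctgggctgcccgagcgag
SDC3: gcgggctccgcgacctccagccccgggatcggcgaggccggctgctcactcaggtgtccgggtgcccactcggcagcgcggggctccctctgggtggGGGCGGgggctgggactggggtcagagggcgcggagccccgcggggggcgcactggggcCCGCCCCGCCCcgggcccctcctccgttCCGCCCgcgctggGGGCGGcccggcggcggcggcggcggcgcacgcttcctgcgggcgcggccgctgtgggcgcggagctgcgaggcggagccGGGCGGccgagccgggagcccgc
GPC4: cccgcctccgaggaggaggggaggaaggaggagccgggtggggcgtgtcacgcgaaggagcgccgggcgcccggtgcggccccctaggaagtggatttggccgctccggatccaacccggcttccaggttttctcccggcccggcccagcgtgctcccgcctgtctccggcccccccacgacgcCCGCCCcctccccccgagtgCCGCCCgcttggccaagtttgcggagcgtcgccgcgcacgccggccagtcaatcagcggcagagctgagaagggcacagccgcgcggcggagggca
GPC6: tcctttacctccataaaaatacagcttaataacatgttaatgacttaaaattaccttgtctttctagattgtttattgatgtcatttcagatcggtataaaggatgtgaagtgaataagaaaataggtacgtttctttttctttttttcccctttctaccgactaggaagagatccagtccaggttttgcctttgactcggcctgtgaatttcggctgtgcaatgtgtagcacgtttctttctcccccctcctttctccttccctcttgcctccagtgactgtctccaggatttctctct
SDC4: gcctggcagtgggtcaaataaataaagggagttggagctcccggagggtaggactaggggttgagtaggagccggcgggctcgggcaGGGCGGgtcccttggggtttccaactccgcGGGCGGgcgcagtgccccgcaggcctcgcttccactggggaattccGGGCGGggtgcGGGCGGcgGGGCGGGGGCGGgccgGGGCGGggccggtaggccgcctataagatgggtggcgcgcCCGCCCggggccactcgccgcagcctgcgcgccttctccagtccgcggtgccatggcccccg
The GC box matched 4 times in the GPC1 window, 6 times in that of SDC3, 2 times in that of GPC4 and 8 times in that of SDC4, and 0 times in that of GPC6. Of 35116 windows of the same length 45.0% held at least 1 match and 15.8% held at least 3. GC content was 83.3% for GPC1 and 84.0% for SDC3, against 74.7% for GPC4, 74.0% for SDC4 and 40.0% for GPC6, with a median of 58.7% over all windows. The interferon response core (GAAA, any 2 bases, GAAA, on either strand) was found in the GPC6 window only among the 7 genes, and 3.57% of all windows held it. The kappaB core (GGGA, any 2 bases, TTCC, on either strand) was in none of the 7 genes' windows, against 1.61% of all windows. The part of such matches in the expression of these genes was not tested. A match is a string of letters and not a measured binding site.

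U251 cells expressed a syndecan-rich set of cores. Levels between genes are compared in FPKM, the authors' values scaled to gene length and library size, whose gene lengths are not stated. Lengths implied by the counts and FPKM were 7085 bases for GPC1, 5385 for GPC4 and 11687 for AGRN. The longest GENCODE v29 transcripts of these genes have 3713, 4960 and 7394 bases, so ranks between genes depend on the lengths used. SDC4, a widely expressed syndecan of focal adhesions, was highest, with a mean of 59.6 FPKM in STING-OE libraries and 60.4 FPKM in NC libraries. SDC1 followed at 34.3 FPKM in STING-OE and 39.7 FPKM in NC, then AGRN at 27.4 and 30.3 FPKM in the same order of groups. GPC4 led the glypicans, at 19.6 FPKM in STING-OE and 19.9 FPKM in NC. GPC1 stood at 9.83 FPKM in STING-OE and 13.9 FPKM in NC, SDC2 at 8.79 FPKM in STING-OE and 8.60 FPKM in NC, SDC3 at 4.39 FPKM in STING-OE and 5.85 FPKM in NC, and GPC6 at 3.95 FPKM in STING-OE and 4.23 FPKM in NC. GPC2, known from developing neurons, and GPC3, an oncofetal glypican of liver and embryo, were near the bottom, at 0.39 and 0.0967 FPKM in STING-OE libraries and 0.38 and 0.13 FPKM in NC libraries.

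The order of the 10 genes in the deposited FPKM was the same in both groups. In NC libraries the ranges of neighbours in this order did not overlap for any pair. In STING-OE libraries only SDC3 (3.95 to 4.83 FPKM) and GPC6 (3.75 to 4.17 FPKM) overlapped. GPC1 and SDC2 were closer in STING-OE libraries, with means 1.12-fold apart, than in NC libraries, with means 1.62-fold apart.

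**Figure D1:**
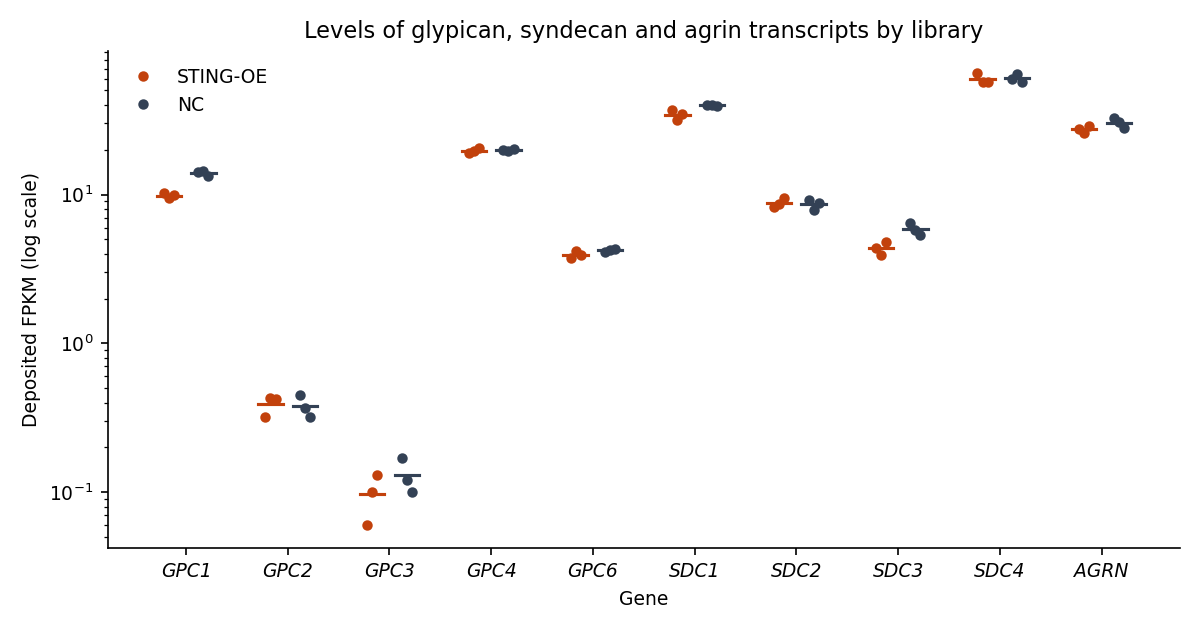
Deposited FPKM (log scale) of the 10 core protein genes in each library, with STING-OE left of NC for each gene, 3 points per group and a line at the mean. GPC1, SDC3 and SDC1 sit lower in all 3 STING-OE libraries than in any NC library, and SDC1 did not pass the test. In CPM, 9.73% of all tested genes were lower in this way. GPC4 (19.6 FPKM in STING-OE, 19.9 FPKM in NC) and SDC4 (59.6 FPKM in STING-OE, 60.4 FPKM in NC) lie at nearly the same height in both groups.

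With the STING plasmid 2 of the 10 core genes fell, GPC1 and SDC3, 0 rose and 8 did not pass the test. The threshold was an adjusted p of 0.05 in edgeR's quasi-likelihood test over 21679 genes, which called 0.890% of all tested genes lower and 0.604% higher. All 10 genes passed the filter on low counts. For the 10 genes the log2 fold changes had a median of −0.14, against 0.00 over all tested genes, and 8 of the 10 estimates were negative. In 4 genes (GPC1, GPC6, SDC1 and SDC3) every STING-OE library lay below every NC library in CPM, as 9.73% of all tested genes did. In FPKM the groups of GPC6 overlapped, with 4.17 in STING-OE library 2 and 4.12 in NC library 1. DESeq2 called 4 of the 10 lower (GPC1, SDC3, SDC1 and AGRN), but it called 4.26% of its 12310 genes lower, and limma-voom called 1 (GPC1) and 0.364% of all genes lower. Limma on log2(FPKM + 0.1) also called GPC1, the only gene it called lower among all tested genes (0.00461%). Without NC library 1, NC library 2 or STING-OE library 2 the number of cores called lower was 1 each time, GPC1. These fits called 0.115%, 0.115% and 0.208% of all tested genes lower.

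GPC1 showed the clearest change. This glypican (ENSG00000063660, chromosome 2, 240435663 to 240468076, plus strand, protein coding) binds FGF2 through its chains and is found on glioma cells. It was counted 5550, 5057 and 5262 times in STING-OE libraries and 7302, 7276 and 7149 times in NC libraries, which is 72.3, 65.4 and 69.3 CPM in STING-OE and 99.4, 103 and 94.7 CPM in NC. The groups were far apart relative to their spread, at 69.0 ± 3.43 CPM in STING-OE and 98.9 ± 4.05 CPM in NC (SD, n = 3 each). GPC1 fell by 30.3%, with a log2 fold change of −0.52 (SE 0.053, approximate 95% interval −0.63 to −0.41) and an edgeR adjusted p of 0.000125. It passed the threshold in all 17 alternative analyses, where its log2 fold change lay between −0.56 and −0.45. The 2 other models on its bases, the microRNA gene MIR149 on the same strand and the antisense model AC110619, together held 0.192% to 0.989% of its count. The strand setting of the counting is not given in the sources used here, and the part of overlapping reads in the GPC1 count was not tested.

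The other glypicans did not pass the test. GPC4, the glypican with the highest mean CPM and FPKM here, was at 102, 103 and 109 CPM in STING-OE libraries and 107, 106 and 110 CPM in NC libraries. Its groups overlapped, and the log2 fold change was −0.04 (approximate 95% interval −0.14 to 0.06, edgeR adjusted p = 0.775). GPC6, a close relative of GPC4 that is known for its role in growth plates, was at 29, 31.5 and 30.1 CPM in STING-OE libraries and 31.6, 33.1 and 33.9 CPM in NC libraries. These groups just missed overlapping, between 31.5 CPM in STING-OE and 31.6 CPM in NC, and the log2 fold change was −0.12 (approximate 95% interval −0.26 to 0.01, edgeR adjusted p = 0.41). The intervals of GPC4 and GPC6 lie wholly above that of GPC1, which ends at −0.41.

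GPC2 and GPC3 were too low for a narrow estimate. GPC2 was counted 106, 137 and 135 times in STING-OE libraries and 138, 112 and 104 times in NC libraries, with overlapping groups and an approximate 95% interval of −0.47 to 0.53 for its log2 fold change. GPC3 was counted 14, 25 and 31 times in STING-OE libraries and 39, 26 and 25 times in NC libraries, with an interval of −1.46 to 0.61. The GPC3 interval contains the GPC1 estimate of −0.52, and the lower bound for GPC2 lies just above it. A processed pseudogene model within GPC3, AL009174 on the opposite strand, had 36 to 47 counts per STING-OE library and 34 to 37 per NC library, and since the strand setting of the counting is not given in the sources used here, the GPC3 value is uncertain.

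GPC1 held a smaller part of the glypican mRNA pool in STING-OE libraries, and a lower GPC1 level raises the shares of other glypicans by arithmetic. It made up 30.7%, 28.0% and 28.4% of the summed glypican FPKM in STING-OE libraries, against 36.4%, 37.2% and 34.6% in NC libraries. GPC4 made up 57.9% ± 0.97 in STING-OE libraries and 51.6% ± 1.19 in NC libraries (SD, n = 3 each), although its own level did not pass the test. The summed FPKM of the 5 glypicans was 33.9 ± 0.798 in STING-OE and 38.5 ± 0.375 in NC. Of the summed FPKM of all 10 cores GPC1 made up 5.81%, 5.87% and 5.83% in STING-OE libraries, against 7.59%, 7.65% and 7.49% in NC libraries. These sums and shares restate the FPKM values above and are no separate result. They are descriptions without a test, and their sizes depend on the gene lengths behind the FPKM values.

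**Figure D2:**
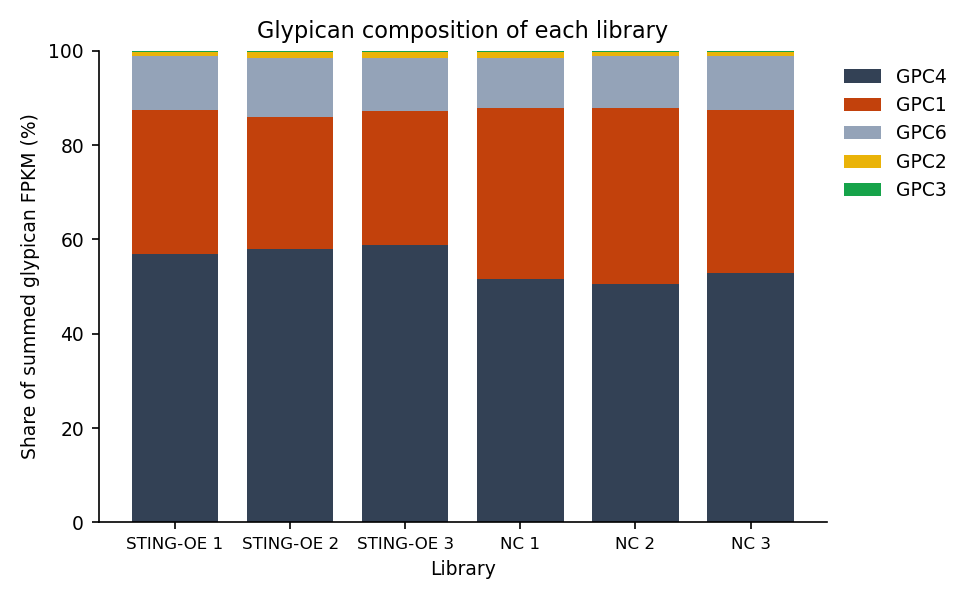
Share of the summed glypican FPKM (%) taken by each of the 5 glypicans in each library, STING-OE libraries on the left and NC libraries on the right. The GPC1 segment spans 28.0% to 30.7% in STING-OE libraries and 34.6% to 37.2% in NC libraries, and the GPC4 segment is larger in every STING-OE library.

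Among the syndecans SDC3 fell. SDC3 (ENSG00000162512, chromosome 1, 30869466 to 30908758, minus strand) is the syndecan best known from the nervous system, where it binds pleiotrophin. It was at 33.6, 29.6 and 36.7 CPM in STING-OE libraries and 48.6, 45.1 and 41.4 CPM in NC libraries. The groups did not overlap, but both were more scattered than for GPC1, at 33.3 ± 3.55 CPM in STING-OE and 45.0 ± 3.58 CPM in NC (SD, n = 3 each). SDC3 fell by 26.0%, with a log2 fold change of −0.43 (SE 0.080, approximate 95% interval −0.60 to −0.26) and an edgeR adjusted p of 0.0164. The direction held in all 17 alternatives and the call in 10 of them. The call was lost without NC library 1 (edgeR adjusted p = 0.0965), NC library 2 (0.0878), STING-OE library 1 (0.0514) or STING-OE library 2 (0.0712), in limma-voom (adjusted p = 0.0537) and in limma on log2(FPKM + 0.1) (adjusted p = 0.175). It was also lost in edgeR with the replicate block and GC and length offsets (adjusted p = 0.112).

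SDC1, the epithelial and plasma cell syndecan that also appears in gliomas, came close to the threshold. It was at 145, 121 and 134 CPM in STING-OE libraries and 155, 159 and 155 CPM in NC libraries. The groups did not overlap, and STING-OE library 1 lay nearest to the NC libraries. The log2 fold change was −0.23 (SE 0.057, approximate 95% interval −0.35 to −0.11, edgeR adjusted p = 0.0566). Without STING-OE library 1 SDC1 passed the threshold, with a log2 fold change of −0.30 (edgeR adjusted p = 0.0104) in a fit that called 2.12% of all genes lower, and it passed in 6 of the 17 alternatives in all.

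SDC4 and SDC2 showed no difference beyond their spread. SDC4, which recruits protein kinase C alpha to adhesion sites, was at 185, 158 and 159 CPM in STING-OE libraries and 167, 186 and 164 CPM in NC libraries. The highest values of both groups were nearly equal, and the log2 fold change was −0.04 (approximate 95% interval −0.18 to 0.10, edgeR adjusted p = 0.867). SDC2, a syndecan of mesenchymal cells and dendritic spines, was at 36.8, 37.6 and 41.3 CPM in STING-OE libraries and 40.3, 35.4 and 39.2 CPM in NC libraries, with a log2 fold change of 0.01 (approximate 95% interval −0.13 to 0.15, edgeR adjusted p = 0.973). The SDC2 estimate changed sign with GC and length offsets (−0.03) and its groups overlapped, so it has no direction. Neither interval reaches the estimate of SDC3.

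AGRN, the only secreted core of the 10, had a smaller estimate than SDC1. It was at 321, 296 and 335 CPM in STING-OE libraries and 375, 361 and 331 CPM in NC libraries. The groups overlapped, since STING-OE library 3 lay above NC library 3. The log2 fold change was −0.16 (SE 0.055, approximate 95% interval −0.28 to −0.05, edgeR adjusted p = 0.162), and DESeq2 alone among the 17 alternatives called it lower (adjusted p = 0.0401). Agrin's receptor and partner genes did not pass the test either, with 0 of 5 tested genes called. DAG1, which encodes dystroglycan, the laminin and agrin receptor, was at 363, 341 and 349 CPM in STING-OE libraries and 413, 402 and 377 CPM in NC libraries (log2 fold change −0.18, edgeR adjusted p = 0.0707). LRP4, the agrin receptor of muscle, was near 10 CPM in both groups (log2 fold change −0.16, edgeR adjusted p = 0.545), and DOK7 and RAPSN of the muscle synapse stayed at or below 0.582 CPM.

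**Figure D3:**
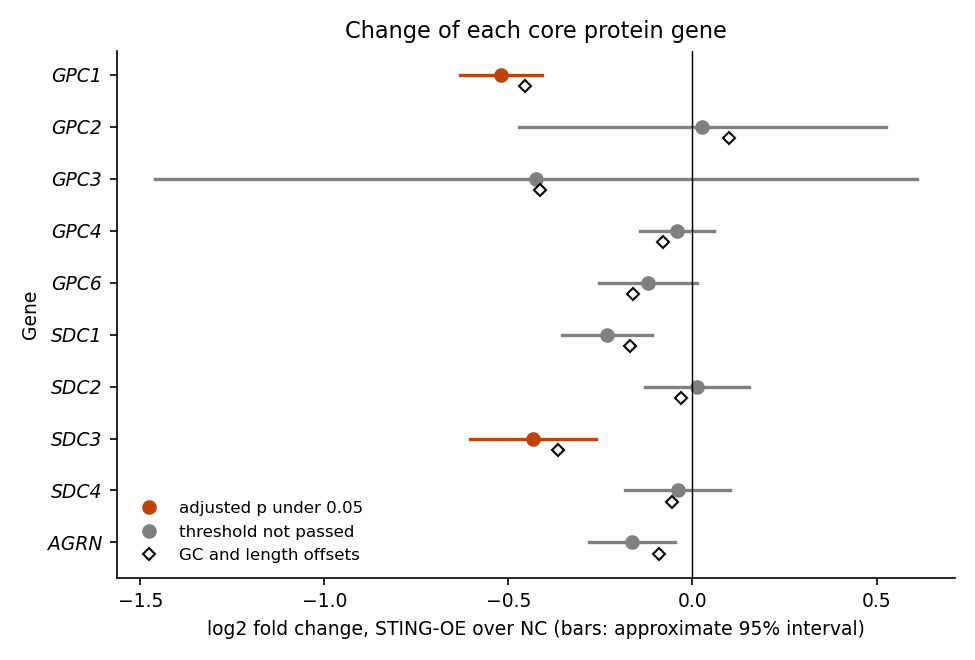
Log2 fold change, STING-OE over NC, of the 10 core protein genes with approximate 95% intervals (circles and bars), and the same with offsets for GC content and length (diamonds). GPC1 (−0.52) and SDC3 (−0.43) pass the threshold, the intervals of GPC4, SDC2 and SDC4 are narrow around 0, and those of GPC2 and GPC3 are wide.

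Fold changes over all tested genes varied with GC content, which is given here beside these genes, but the trend of STING-OE library 1 lay within the NC range. For each 10% more GC content, log2 levels across tested genes shifted by 0.0278, −0.063 and −0.0338 in STING-OE libraries 1, 2 and 3 and by 0.0157, 0.0414 and 0.0119 in NC libraries 1, 2 and 3. The median GC content of the longest transcript was 56.3% in genes called lower, 44.3% in genes called higher and 47.9% in all tested genes. Among the cores GC content was highest in AGRN (67.5%) and GPC1 (66.7%), followed by GPC2 (61.2%), SDC1 (60.1%), SDC3 (58.7%) and GPC3 (51.4%). It was lower in SDC4 (48.8%), GPC4 (44.8%), SDC2 (43.9%) and GPC6 (41.6%). Genes of 65% to 70% GC had a median log2 fold change of −0.06. With offsets for GC content and length GPC1 was still lower, with a log2 fold change of −0.45 (edgeR adjusted p = 6.07e-05), SDC3 had −0.37 (edgeR adjusted p = 0.0304) and SDC1 −0.17 (edgeR adjusted p = 0.0442), so 3 of the 10 were called lower in that fit, which called 1.41% of all genes lower. With the same offsets AGRN had −0.09 (edgeR adjusted p = 0.423) and GPC2 0.10 (edgeR adjusted p = 0.914). With the offsets and the replicate block together SDC3 was not called (edgeR adjusted p = 0.112). The part of GC content in these changes was not tested.

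**Figure D4:**
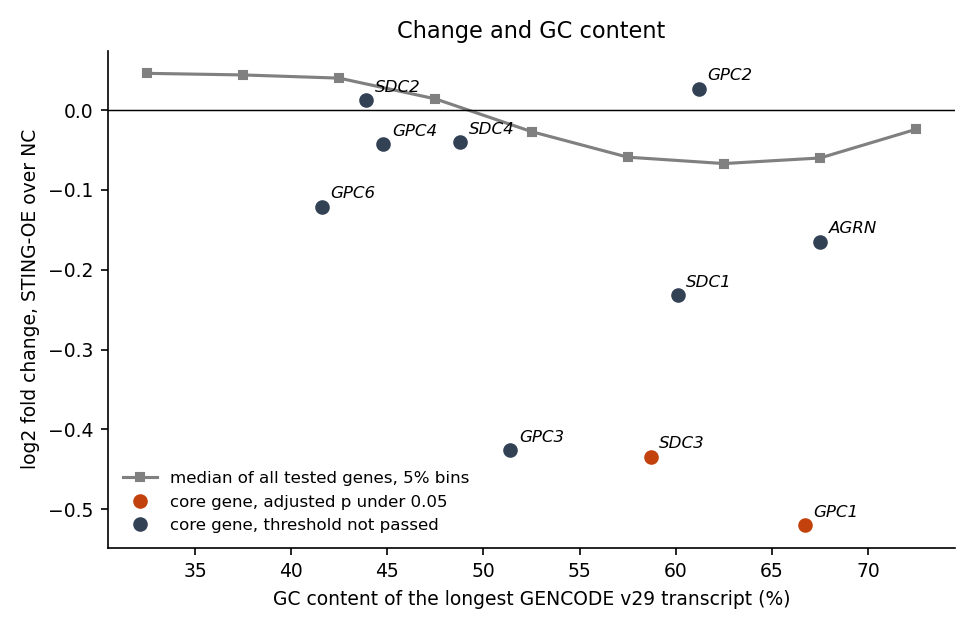
Log2 fold change, STING-OE over NC, against the GC content of the longest GENCODE v29 transcript (%) for the 10 core protein genes (points), with the median of all tested genes in bins of 5% (grey line). The line falls to −0.07 between 60% and 65% GC, and the points of GPC1, SDC3 and AGRN lie at −0.52, −0.43 and −0.16.

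Genes that build, edit, break down and release heparan sulfate, syndecan and agrin partners, other cores and heparan sulfate ligands were read from 8 lists. The lists held 93 tested genes. Of these 6 were lower, 0 were higher and 87 did not pass the test, against 0.890% lower and 0.604% higher over all tested genes. The median was −0.06 on the log2 scale, against 0.00 over all tested genes, and the same shares stand beside each list below. The 6 were SULF2, NAGLU, MMP14, MMP2, FURIN and COL18A1. Every STING-OE library lay below every NC library in CPM for 22 of the 93 genes and above for 3. Over all tested genes 9.73% lay below and 10.1% above in this way. The number called lower depended on single libraries, at 1, 2 and 2 without NC library 1, 2 or 3 and 11, 2 and 3 without STING-OE library 1, 2 or 3. The share of all tested genes called lower moved too. It was 0.115%, 0.115% and 0.279% without NC library 1, 2 or 3. Without STING-OE library 1, 2 or 3 it was 2.12%, 0.208% and 0.448%. COL18A1 was called in every one of these fits.

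The assembly line of the chain itself held no called gene. Of 16 tested genes for the linker, the polymerases, the sulfate donor and the sugar nucleotides 0 rose and 0 fell, with a median of −0.05. The lowest unadjusted p-values belonged to EXTL3, which starts the chain (145, 129 and 126 CPM in STING-OE libraries, 150, 164 and 145 CPM in NC libraries, edgeR adjusted p = 0.122), and SLC35B2, the Golgi transporter of the sulfate donor (log2 fold change −0.14, edgeR adjusted p = 0.192). The polymerase genes EXT1 and EXT2 had log2 fold changes of 0.02 and −0.13 (edgeR adjusted p of 0.941 and 0.211).

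Of 14 tested genes of chain modification only SULF2 was called. SULF2 encodes an extracellular sulfatase that removes 6-O-sulfates from finished chains and so changes which ligands they hold. It was at 29.6, 25.4 and 26.6 CPM in STING-OE libraries and 37.0, 34.7 and 35.5 CPM in NC libraries, without overlap. The log2 fold change was −0.40 (SE 0.069, edgeR adjusted p = 0.00996), and the call was lost, at edgeR adjusted p of 0.0835, 0.0526, 0.0554 and 0.0613 without NC library 1, 2 or 3 or STING-OE library 2. HS6ST3, which adds 6-O-sulfates, was at 9.18, 7.57 and 9.16 CPM in STING-OE libraries and 6.53, 6.96 and 6.90 CPM in NC libraries. Every STING-OE library lay above every NC library, as in 10.1% of all tested genes. HS6ST3 did not pass the test (log2 fold change 0.35, edgeR adjusted p = 0.175). NDST1 and HS2ST1, which start and continue sulfation, had log2 fold changes of −0.09 and 0.00.

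Of 9 tested genes of chain breakdown 1 fell. NAGLU, a lysosomal glucosaminidase whose loss causes Sanfilippo syndrome, was at 27.0, 25.7 and 27.6 CPM in STING-OE libraries and 34.4, 33.8 and 30.7 CPM in NC libraries (log2 fold change −0.30, edgeR adjusted p = 0.0367). NAGLU was not called with GC and length offsets (edgeR adjusted p = 0.0745). Nor was it called without any single library other than STING-OE library 1, with edgeR adjusted p between 0.0594 and 0.191. HPSE, the extracellular heparanase, had a log2 fold change of 0.04 (edgeR adjusted p = 0.891).

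Genes of shedding and release all had negative estimates, as did 10794 of all 21679 tested genes. Of 11 tested genes 3 fell and 8 did not pass, against 0.890% called lower over all tested genes. The median was −0.25 on the log2 scale. MMP14, a membrane-bound metalloprotease that can cut SDC1, was at 140, 133 and 143 CPM in STING-OE libraries and 183, 171 and 166 CPM in NC libraries (log2 fold change −0.33, edgeR adjusted p = 0.00469, and 0.0636 without NC library 1). MMP2, a secreted gelatinase, averaged 51.2 ± 4.27 CPM in STING-OE libraries and 62.4 ± 1.85 CPM in NC libraries without overlap (SD, n = 3 each, log2 fold change −0.29, edgeR adjusted p = 0.0307). FURIN, the convertase that activates MMP14 and cleaves GPC3, was at 118, 115 and 117 CPM in STING-OE libraries and 130, 135 and 135 CPM in NC libraries (log2 fold change −0.19, edgeR adjusted p = 0.0441). Without any single library other than STING-OE library 1, MMP2 and FURIN lost their calls, with edgeR adjusted p from 0.0772 to 0.145 for MMP2 and from 0.122 to 0.202 for FURIN, and FURIN also lost it with GC and length offsets (edgeR adjusted p = 0.124). The main syndecan sheddases ADAM17 and ADAM10 had log2 fold changes of −0.08 and −0.03 (edgeR adjusted p of 0.576 and 0.848).

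Cytoplasmic partners of syndecans did not pass the test, with 0 of 11 called and a median of −0.11 on the log2 scale. CASK, a scaffold that binds the syndecan tail, was at 28.9, 30.9 and 29.4 CPM in STING-OE libraries and 35.7, 33.4 and 32.3 CPM in NC libraries, without overlap (log2 fold change −0.19, edgeR adjusted p = 0.17). FLOT2, a flotillin of membrane microdomains, had a log2 fold change of −0.13 (edgeR adjusted p = 0.211), and SDCBP, the adaptor syntenin, one of −0.05 (edgeR adjusted p = 0.683).

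Of 10 other cores that can carry heparan sulfate 1 fell, COL18A1, the basement membrane collagen that yields endostatin. It was at 17.4, 16 and 16.4 CPM in STING-OE libraries and 28.6, 27.8 and 26.5 CPM in NC libraries. The log2 fold change was −0.73 (approximate 95% interval −0.89 to −0.58, edgeR adjusted p = 0.000118). This was larger in size than the −0.52 of GPC1, but the intervals overlapped (−0.63 to −0.41 for GPC1). HSPG2, which encodes perlecan, the other large basement membrane core beside agrin, was at 18.4, 18.1 and 20.5 CPM in STING-OE libraries and 19.6, 18.4 and 18.3 CPM in NC libraries (log2 fold change 0.02, approximate 95% interval −0.15 to 0.19). The GC content was 67.2% for COL18A1 and 64.5% for HSPG2. SPOCK2, a testican, and the surface cores CD44 and NRP1 did not pass, with log2 fold changes of −0.31, −0.05 and −0.02.

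Of 17 tested genes for ligands that bind heparan sulfate 0 rose and 0 fell. The lowest unadjusted p-values were those of PTN, the pleiotrophin that binds SDC3, and FGF2, which binds GPC1. PTN was at 70.8, 71.0 and 79.8 CPM in STING-OE libraries and 65.2, 64.8 and 63.6 CPM in NC libraries (log2 fold change 0.19, edgeR adjusted p = 0.0957). FGF2 was at 71.5, 75.9 and 72.8 CPM in STING-OE libraries and 66.8, 65.1 and 65.5 CPM in NC libraries (log2 fold change 0.16, edgeR adjusted p = 0.125). Every STING-OE library lay above every NC library for both ligands, as 10.1% of all tested genes did, and neither passed the test.

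**Figure D5:**
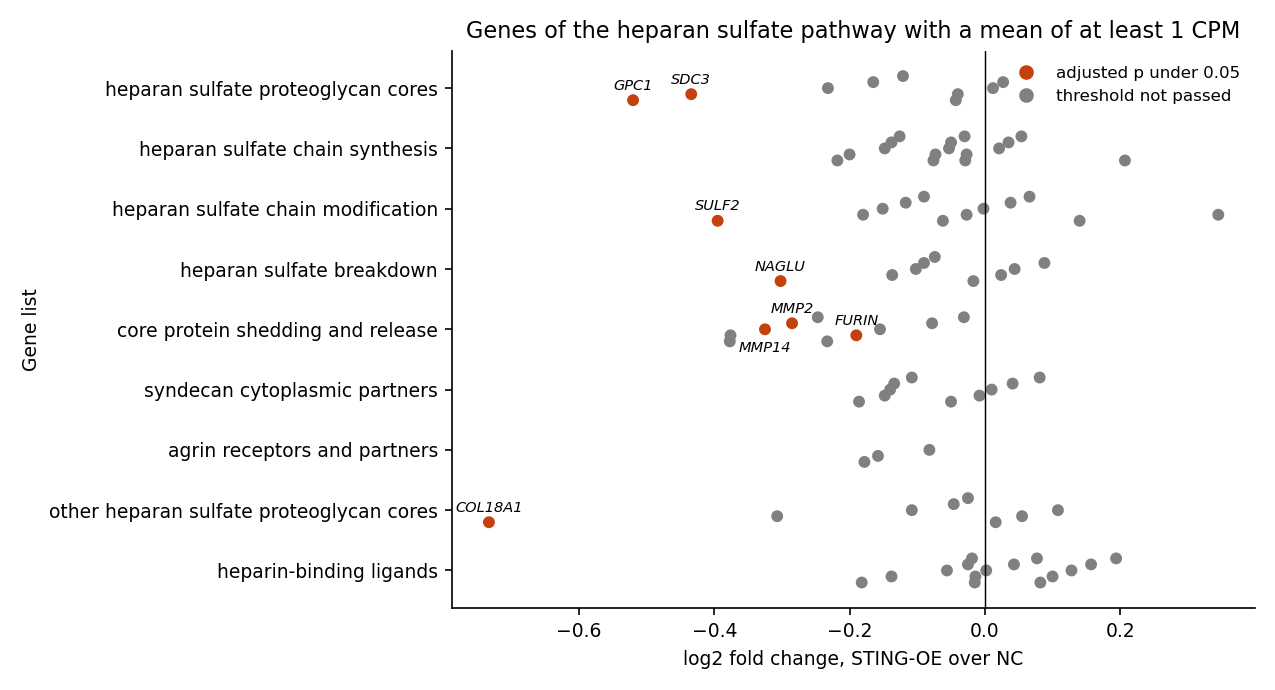
Log2 fold change, STING-OE over NC, of tested genes with a mean of at least 1 CPM in the core protein list and the 8 pathway lists, 1 point per gene, with genes past the adjusted p threshold of 0.05 named. The 8 named genes are all lower, from FURIN at −0.19 to COL18A1 at −0.73, and the synthesis, partner, agrin and ligand lists hold none.

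Over the 6 libraries the log2 CPM of GPC1 ran most closely with SUN2, a nuclear envelope protein (Pearson r = 0.999), TNC, the matrix protein tenascin C (0.998), and CDH4, a cadherin (0.998), among 10302 genes with a mean of at least 10 CPM. All 3 were lower in STING-OE libraries. SUN2 averaged 112 ± 3.27 CPM in STING-OE and 143 ± 3.32 CPM in NC, TNC 511 ± 11.3 CPM in STING-OE and 579 ± 10.0 CPM in NC, and CDH4 87.6 ± 2.52 CPM in STING-OE and 114 ± 3.50 CPM in NC (SD, n = 3 each). With 2 groups of 3 libraries any gene that separates the groups scores high, and 187 genes reached r of at least 0.95. Among the other cores r with GPC1 was 0.93 for SDC3, 0.916 for SDC1, 0.822 for AGRN, 0.692 for GPC6, 0.458 for GPC4, 0.387 for SDC4 and −0.151 for SDC2.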

How the data were processed

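RNA was sequenced from 3 STING-OE and 3 NC libraries. Trizol extraction and an Illumina TruSeq RNA library kit are named in the labels' protocols, and Bowtie 0.12.2 in the submitters' processing notes. Counter, annotation, build and strand setting were not given in the sources used here. The deposited tables hold the authors' counts per Ensembl gene and the authors' FPKM values, per the file headers. Gene models of 40903 of 42307 identifiers were present in GENCODE v29. A start or end lay within 1 base for 89.8% of them, and positions are therefore called GRCh38.

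The test was edgeR's (4.0.16, in R 4.3.3) two-sided quasi-likelihood test with TMM factors, filterByExpr and no covariates, adjusted by Benjamini-Hochberg over 21679 genes. CPM values are scaled with the TMM factors. Standard errors and intervals derive from the test's F value and are approximate. The procedure was tested on simulated data. Replicate pairs differed by a chi-square of 11.7 to 23 per gene, so each library was counted once. Alternatives were other scalings, filters and tests (DESeq2 1.42.0, limma 3.58.1, with FPKM as log2 of FPKM plus 0.1), offsets for GC content and length of the longest GENCODE v29 transcript (97.9% of tested genes), a replicate block and leaving out each library.

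The core genes, gene lists and tests were chosen with earlier results of these data known. Named genes were the 10 cores, STING1, in each list every gene past the threshold and the 2 lowest unadjusted p, and the 3 genes most like GPC1. Further genes were named after their values were seen. The value of 1 gene that the rule named is not reported here.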

Additional observations from a re-analysis of the deposited data

How the results depend on the processing

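GPC1 passed the threshold in all 17 alternatives. The number of the 10 core genes called lower was 2, and 4 with DESeq2, 1 with limma-voom and 1 with limma on log2(FPKM + 0.1). It was 3 with upper-quartile scaling, without a filter on low counts, with at least 1 CPM in 3 libraries and with GC and length offsets. With each library left out in turn it was 1 to 2, and without STING-OE library 1 the 2 were GPC1 and SDC1. The share of all tested genes called lower ran from 0.00461% with limma on FPKM to 4.26% with DESeq2. No core gene was called higher in any alternative. The 6 pathway genes called lower became 3 with limma-voom, 0 with limma on FPKM and 1 to 11 with a library left out, the highest without STING-OE library 1. Pathway genes called higher were 0, and 1 with scaling to total counts, 1 with at least 1 CPM in 3 libraries and 2 with DESeq2. Same-numbered libraries deviated together little (correlations of 0.0551, 0.0231 and 0.0172), which does not settle whether they were paired. Every library except STING-OE library 3 correlated best with its own number. STING-OE library 3 had correlations of 0.0192 with NC library 2 and 0.0172 with NC library 3. With the replicate block 2 core genes and 3 pathway genes were called lower, and with the replicate block and GC and length offsets 1 and 2. All genes called were 324, and 120 with the block, 111 with the block and offsets, 502 with offsets alone, 924 with DESeq2, 686 with at least 1 CPM in 3 libraries, 137 with limma-voom, 9 with limma on FPKM and 60, 60 and 104 without NC library 1, 2 or 3 and 741, 95 and 163 without STING-OE library 1, 2 or 3. Scaling to total counts gave 246 higher and 138 lower genes, against 131 and 193 with TMM.

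Estimates near 0 changed sign. The log2 fold change of GPC2 was 0.03, and −0.075, −0.03 and −0.034 without NC library 3, STING-OE library 2 or STING-OE library 3 (−0.075 to 0.151 with a library left out). That of SDC2 was 0.01, and −0.031 with GC and length offsets, −0.031 with the replicate block and offsets, and −0.043 to 0.049 with a library left out. That of SDC4 was −0.04, and −0.118 to 0.016 with a library left out. The causes were not tested. DESeq2 gave no adjusted p for GPC2 and GPC3, GPC3 did not pass the filter of 1 CPM, and low counts limit both.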

Other observations

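Cores that carry chondroitin, dermatan or keratan sulfate were read from a list of 12 genes drawn up after the heparan sulfate results were seen. Of 8 tested genes 1 fell, 0 rose and 7 did not pass edgeR's test, which called 0.890% of all tested genes lower. VCAN, the large matrix core versican, was at 194, 204 and 210 CPM in STING-OE libraries and 244, 225 and 234 CPM in NC libraries (log2 fold change −0.21, SE 0.047, edgeR adjusted p = 0.0409). VCAN has a GC content of 42.9% and was also called with GC and length offsets (edgeR adjusted p = 0.00472), but it was called in 1 of 6 analyses with a library left out, without STING-OE library 1 (edgeR adjusted p = 0.0434), and had edgeR adjusted p of 0.0668 to 0.225 in the others. APLP2, a relative of the amyloid precursor that can carry chondroitin sulfate, was at 636, 657 and 691 CPM in STING-OE libraries and 756, 702 and 723 CPM in NC libraries, without overlap (log2 fold change −0.14, edgeR adjusted p = 0.149). CSPG4, known as NG2, was at 2.60, 2.16 and 2.42 CPM in STING-OE libraries and 1.52, 2.22 and 1.6 CPM in NC libraries (log2 fold change 0.43, edgeR adjusted p = 0.401). LUM, the keratan sulfate core lumican, had the largest estimate of the list at a low level, with 0.104, 0.569 and 0.632 CPM in STING-OE libraries and 0.163, 0.169 and 0.053 CPM in NC libraries. The groups overlapped, and the log2 fold change was 1.75 (approximate 95% interval 0.27 to 3.22, edgeR adjusted p = 0.245). BCAN, CSPG5, BGN and PTPRZ1 stayed at or below 2.72 CPM in every library, and NCAN, ACAN, DCN and FMOD did not pass the filter on low counts.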
